A study of Mus musculus with 12 samples.

Results

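Mtmr11, Npdc1, Ccdc120, C2cd4c, Gipc2, Tmem71, Entpd2, Lncbate1, Susd4, and Lin7a are little-studied genes that were chosen by their strong difference in read count between liver tumors and non-tumoral livers in these same samples. They are 10 of the 24421 gene symbols counted, all 10 were found by symbol, and all 10 passed the filter on low counts. Because the tumor-liver difference chose them, that difference is described here tumor by tumor without a test, and only the differences between tumor classes and between genotypes were tested. All but 1 of the 10 differed from the liver of the same mouse in every tumor by more than counting error, the exception being Susd4 in TCi-HCC981.

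Libraries of poly(A) RNA came from 6 mice, with 1 tumor and 1 sample of non-tumoral liver from each. All mice were older than 18 mo, were kept on a standard diet, and carried 1 allele in which the Cdkn1a (p21) promoter also drives telomerase reverse transcriptase, either active (p21+/Tert) or catalytically inactive (p21+/TertCi), so that the livers used as controls carry the allele too and no wild-type liver was analysed here. Among the p21+/Tert mice, which contributed 4 pairs, T-HCC662 and T-HCC663 were Ctnnb1-mutated, T-HCC941 was Egfr-mutated, and T-HCA992 had none of Ctnnb1, Egfr, or Hras mutated, a class called driver-negative. The 2 pairs of p21+/TertCi mice included TCi-HCC981 (Hras-mutated) and TCi-HCA984 (driver-negative). Each group member is a separate animal. HCC stands for hepatocellular carcinoma and HCA for adenoma, although the study's table lists T-HCC663 as an adenoma. Both Ctnnb1-mutated tumors are p21+/Tert, so this mutation has no p21+/TertCi counterpart.

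The libraries held 14571716 to 26170661 counted reads. Hepatocyte markers were abundant in every library, their summed level running from 29786.8 to 54369.4 CPM in livers and from 15692.7 to 94354.3 CPM in tumors, where CPM is the read count scaled to a common library size. Alb had the highest mean of the 6, at 21090 CPM in livers and 45368 CPM in tumors. Of the 6 markers, 2 had a higher mean in tumors and the others a lower mean. None passed in tumors against livers with edgeR. DESeq2 called Cps1 (means of 2021 CPM in livers and 742 CPM in tumors) and Serpina1c (4675 and 2061 CPM). Tert reads, which include any from the inserted allele, lay between 10.5 and 17.3 CPM in livers and between 4.69 and 26.1 CPM in tumors. In bulk tissue, fewer cells of a type and less RNA per cell cannot be told apart.

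The 10 genes belong to unrelated families. Adaptor and scaffold proteins with PDZ or coiled-coil domains (Gipc2, Lin7a, Ccdc120) hold receptors, junction proteins, or regulators of small GTPases in place. Mtmr11 is a relative of the myotubularin phosphoinositide phosphatases that lacks the catalytic residues, and C2cd4c belongs to a small family named for its C2 domain. Npdc1, Tmem71, Entpd2, and Susd4 encode membrane proteins, of which Entpd2 is an ectonucleotidase that cleaves extracellular ATP and in liver is known from portal fibroblasts, and Susd4 is a sushi domain protein that restrains complement. Lncbate1 is a long noncoding RNA known from brown fat, where it acts with Hnrnpu.

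On GRCm38 the genes lie on chromosomes 1 (Susd4), 2 (Npdc1 and Entpd2), 3 (Mtmr11 and Gipc2), 8 (Lncbate1), 10 (C2cd4c and Lin7a), 15 (Tmem71), and X (Ccdc120). Npdc1 and Entpd2 are adjacent and on the same strand. In the GENCODE annotation their start sites are 3.48 kb apart and 612 exonic bases are in common. This is 15.67% of the exons of Npdc1 and 28.76% of those of Entpd2. How reads on these shared bases were counted is not given in the sources used here. The RefSeq start of Npdc1 used for the window below differs. That window ends at base 25403049, beyond the GENCODE end of Entpd2 at 25401321. The antisense gene Gm17690 covers 37.78% of the exonic bases of Mtmr11 and is not among the symbols counted, and whether the counting used strand is not stated. Lncbate1 lies within the span of Zfhx3 on the opposite strand, with no exonic base in common.

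Sequence before the start site was matched in RefSeq (GRCm38.p6) for 7 of the 10 genes, all but Gipc2, Tmem71, and Lncbate1, as 10 windows of 250 bases. The windows of the neighbors Npdc1 and Entpd2 are printed because both rose, that of C2cd4c because of its genotype comparison, and that of Mtmr11 because it alone held a TCF/LEF core. Capitals mark motifs found on either strand, which are GC boxes, TCF/LEF cores, TATA boxes, AP-1 sites, and antioxidant response elements, as spelled out after the sequences.
Mtmr11, chr3:96161720-96161969, plus strand: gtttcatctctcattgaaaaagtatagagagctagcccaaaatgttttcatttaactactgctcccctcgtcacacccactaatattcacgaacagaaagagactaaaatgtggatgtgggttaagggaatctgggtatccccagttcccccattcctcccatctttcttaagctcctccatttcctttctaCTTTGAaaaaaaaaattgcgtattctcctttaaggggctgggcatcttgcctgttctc
Npdc1, chr2:25402800-25403049, plus strand: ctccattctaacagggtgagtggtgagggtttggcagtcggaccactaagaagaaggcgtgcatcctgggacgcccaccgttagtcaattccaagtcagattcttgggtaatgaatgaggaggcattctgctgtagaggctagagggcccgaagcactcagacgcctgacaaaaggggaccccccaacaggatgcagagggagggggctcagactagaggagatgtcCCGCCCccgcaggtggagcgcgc
Entpd2, chr2:25395624-25395873, plus strand: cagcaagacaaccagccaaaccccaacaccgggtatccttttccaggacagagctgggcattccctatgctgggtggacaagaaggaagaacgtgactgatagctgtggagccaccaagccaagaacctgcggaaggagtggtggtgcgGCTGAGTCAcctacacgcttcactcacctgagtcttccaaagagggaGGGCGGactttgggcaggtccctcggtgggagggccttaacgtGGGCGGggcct
C2cd4c, chr10:79614026-79614275, minus strand: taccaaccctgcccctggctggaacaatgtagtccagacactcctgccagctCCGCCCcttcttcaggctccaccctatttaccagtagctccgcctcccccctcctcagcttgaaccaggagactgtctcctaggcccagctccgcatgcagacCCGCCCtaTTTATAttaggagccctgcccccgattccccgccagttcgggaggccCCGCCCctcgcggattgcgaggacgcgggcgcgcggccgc

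A GC box, GGGCGG, was present in 7 of the 10 windows, from Npdc1, Entpd2, C2cd4c, Susd4, and Lin7a, beside 32.7% of all 32851 windows. The 10 windows were also richer in G and C, at a median of 62.6% beside 52.4% of all windows, and this was not adjusted for. The other motifs were each in few windows of these genes. The TCF/LEF core, CTTTGA, was present in Mtmr11 alone (13.8% of all windows). The AP-1 motif, TGANTCA, was present in Entpd2 alone (6.75%). The antioxidant response element, TGACNNNGC, was also present in Entpd2 alone (10.2%) and there overlapped the AP-1 motif. The TATA box, TATAAA, was present in both C2cd4c windows, which overlap (12.4%). The CCAAT box was present in 1 window each of Ccdc120 and Lin7a (33.8%) and is not in the windows printed. None of the 10 windows held the STAT motif TTCNNNGAA, which was in 7.02% of all windows. None held the HNF4 half-site CAAAGTCCA (0.384%). None held the E-box CACGTG (6.02%). A match is a description of these letters.

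Relative to the liver of the same mouse, 7 of the genes were higher and 3 (Lncbate1, Susd4, and Lin7a) lower in all 6 tumors. On the log2 scale of CPM plus 0.5, 8 of the 10 moved by 2-fold or more in all 6 mice, a size of change that 1.75% of the 13822 genes kept reached in 1 direction, 1.19% upward and 0.557% downward. The exceptions were Susd4, which did so in 5 mice, and Lin7a, which did so in 4. For all 10 genes, no tumor overlapped any liver in CPM, which was true of 5.11% of genes. These shares describe how the genes were chosen and carry no test.

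**Figure D1:**
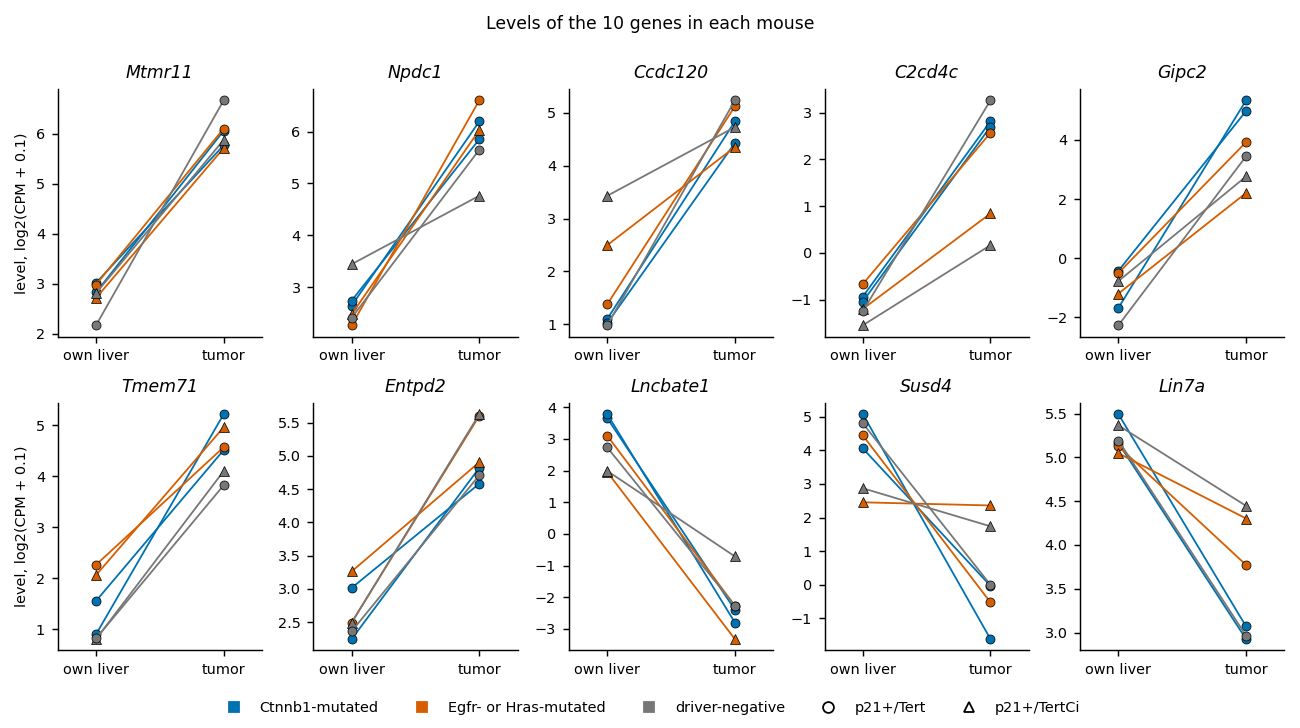
Level of each gene, as log2(CPM + 0.1), in the non-tumoral liver and in the tumor of each mouse, joined by a line. Colors give the driver class and symbols the genotype; 7 genes rise in every mouse, and the lines of Susd4 are nearly level in TCi-HCC981 alone.

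Per kilobase of exon, the level of Mtmr11 rose from 1.79 CPM per kb in the mean liver to 17.7 in the mean tumor, which moved it from percentile 32.5 to percentile 82.2 of the 13270 genes with a length. Npdc1 and Entpd2 reached 15.8 and 16.1 CPM per kb in tumors, from 1.66 and 2.99 in livers. C2cd4c stayed low on this scale, at 0.0553 CPM per kb in livers and 0.774 in tumors (percentile 14.5). In livers, Lin7a (11.4 CPM per kb) and Lncbate1 (10.0 CPM per kb) had the highest levels of the 10, and in tumors Lncbate1 was the lowest at 0.177 CPM per kb.

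Mtmr11, the catalytically dead myotubularin relative, had 4.401 to 7.995 CPM in livers (median 6.96) and 52.2 to 101 CPM in tumors (median 62.5). The mean was 6.77 ± 1.29 CPM in livers and 66.9 ± 18.02 CPM in tumors (SD, n = 6 each). Its rise ran from 6.80-fold in T-HCC663 to 23.0-fold in T-HCA992, with the other 4 tumors between 8.07-fold (TCi-HCC981) and 9.50-fold (T-HCC662). T-HCA992 had both the highest tumor level and the lowest liver level (4.401 CPM).

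Gipc2 encodes a PDZ adaptor of the family that links membrane receptors to the motor protein Myo6. It was close to absent in livers, at 2 to 10 counts per library or 0.107 to 0.645 CPM (median 0.410). In tumors it was highest in T-HCC662 (40.4 CPM) and T-HCC663 (31.5), intermediate in T-HCC941 (15.1) and T-HCA992 (10.8), and lowest in TCi-HCA984 (6.70) and TCi-HCC981 (4.52). Its fold changes rest on few liver reads: 191 (95% counting interval 65.0 to 927) in T-HCC662, whose liver had 3 counts, and 13.5 (6.54 to 32.1) in TCi-HCC981, whose liver had 8. Such intervals cover counting error only.

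Ccdc120 is a coiled-coil protein that binds cytohesins. It had 1.88 to 2.502 CPM in the 4 p21+/Tert livers, 5.54 CPM in the own liver of TCi-HCC981, and 10.7 CPM in that of TCi-HCA984. Tumors held 20.3 (TCi-HCC981), 21.4 (T-HCC663), 26.4 (TCi-HCA984), 28.4 (T-HCC662), 34.6 (T-HCC941), and 37.4 CPM (T-HCA992). The tumor levels of the genotypes thus overlapped and the liver levels did not, so the rise was 11.1- to 19.9-fold in p21+/Tert mice and 3.66- and 2.47-fold in p21+/TertCi mice.

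Lin7a encodes a PDZ scaffold of polarity and junction complexes. It had 32.9 to 44.9 CPM in livers (median 36.1), the narrowest liver range of the 10 genes at 1.36-fold. Tumors fell into a lower set, T-HCC663 (7.49 CPM), T-HCA992 (7.70), and T-HCC662 (8.29), and a higher set, T-HCC941 (13.6), TCi-HCC981 (19.6), and TCi-HCA984 (21.7). Its level was 5.42-fold lower than in the own liver in T-HCC662 and 1.68-fold lower in TCi-HCC981 (counting interval 1.48 to 1.90).

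C2cd4c had 5 to 8 counts in every liver (0.242 to 0.531 CPM). In tumors it reached 9.50 CPM in T-HCA992, 6.94 in T-HCC662, 6.40 in T-HCC663, and 5.83 in T-HCC941, but 1.70 in TCi-HCC981 and 1.02 in TCi-HCA984, from 33 and 18 counts. The rise was 29.5-fold (13.4 to 81.1) in T-HCA992 and 4.22-fold (1.51 to 14.5) in TCi-HCA984. All 4 p21+/Tert tumors lay above both p21+/TertCi tumors.

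Npdc1, a membrane protein first known from neural cells, had 4.70 to 6.58 CPM in 5 livers and 10.8 CPM in the own liver of TCi-HCA984. Tumors ranged from 27.0 CPM (TCi-HCA984) to 97.0 CPM (T-HCC941), with a median of 61.4. The TCi-HCA984 pair held both the highest liver and the lowest tumor level, so its rise was 2.51-fold (2.14 to 2.96) beside 8.76- to 20.6-fold in the others.

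Tmem71, a transmembrane protein of unclear function, had 1.65 to 4.70 CPM in livers (median 2.30) and 14.1 to 37.2 CPM in tumors (median 23.2). The highest tumors were T-HCC662 (37.2 CPM) and TCi-HCC981 (31.1 CPM), and the lowest T-HCA992 (14.1 CPM). Its rise was 5.04-fold in T-HCC941, 21.05-fold in T-HCC662, and 7.64- to 10.4-fold in the other 4.

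Entpd2 had 4.64 to 9.49 CPM in livers (median 5.53) and 23.8 to 49.3 CPM in tumors (median 29.0). TCi-HCA984 (49.3 CPM) and T-HCC941 (48.5 CPM) stood above the other 4 tumors, which lay between 23.8 and 29.8 CPM. The rise was 2.99-fold in T-HCC662, 3.14-fold in TCi-HCC981, and 5.16- to 8.92-fold in the rest. Its neighbor Npdc1 was ordered differently, since in TCi-HCA984 Entpd2 was at its highest and Npdc1 at its lowest tumor level. The summed portal fibroblast markers ran from 12.1 to 34.5 CPM in livers and from 29.4 to 78.9 CPM in tumors. All 7 of these markers had a higher mean in tumors. Of the 6 tested, 1 passed the threshold, Cd34 (log2 fold change 3.27 ± 0.37 SE, adjusted p = 0.00063, edgeR). Cd34 had the largest rise in mean CPM of the 7, from 1.58 to 15.4, so the higher sum rests in large part on it. DESeq2 called Cd34 and Fbln2, as did edgeR with the animal as a block. Without the block Fbln2 did not pass (1.68 ± 0.65, adjusted p = 0.12, edgeR). The part of these markers in the level of Entpd2 was not tested.

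Among tumors Susd4 varied over a 22.3-fold range, the widest of the genes with reads in every tumor, which leaves out Lncbate1. The p21+/Tert livers held 16.6, 21.7, 27.9, and 33.7 CPM and the p21+/TertCi livers 5.38 and 7.22 CPM. Tumors held 0.225 (T-HCC662), 0.594 (T-HCC941), 0.876 (T-HCC663), and 0.896 CPM (T-HCA992) in p21+/Tert mice and 3.24 (TCi-HCA984) and 5.03 CPM (TCi-HCC981) in p21+/TertCi mice. The p21+/TertCi samples were thus lower than p21+/Tert samples among livers and higher among tumors. The level was 18.9- to 150-fold lower than in the own liver in p21+/Tert tumors, 2.23-fold lower (1.63 to 3.08) in TCi-HCA984, and 1.07-fold lower in TCi-HCC981, where the counting interval of 0.815 to 1.40 includes no change.

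Lncbate1 had 3.78 to 13.7 CPM in livers, from 80 to 212 counts. Tumors held 0 counts (TCi-HCC981), 1 (T-HCC663), 2 (T-HCC662), 2 (T-HCC941), 3 (T-HCA992), and 9 (TCi-HCA984). The groups did not overlap, and TCi-HCA984 stood above the other tumors. The level was 139-fold lower than in the own liver in T-HCC662 (counting interval 37.8 to 1155), 60.9-fold lower in T-HCA992 (20.4 to 299), and 7.59-fold lower in TCi-HCA984 (3.80 to 17.2). In TCi-HCC981 it was at least 24.5-fold lower, taking 3 counts in that library as the limit that a count of 0 allows, and the counting interval used for the other tumors starts at 19.5-fold. Ucp1, the defining gene of brown fat, was at a mean of 0.00895 CPM in livers and 0.0584 CPM in tumors, and the adipocyte marker Lep had no read in any library. The summed adipocyte markers ran from 0.152 to 31.3 CPM in livers and from 0.394 to 10.1 CPM in tumors, mostly from Cidea (0.0758 to 31.3 and 0.0438 to 10.1 CPM), while Adipoq and Plin1 were at or near 0 in every library. Their part in the Lncbate1 level was not tested.

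**Figure D2:**
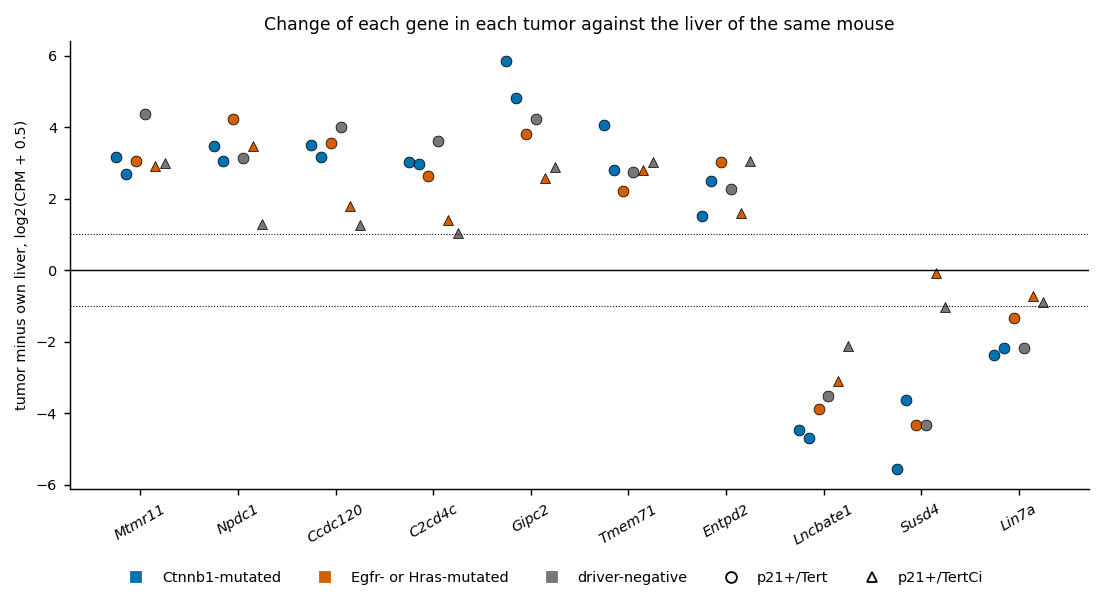
Difference between each tumor and the liver of the same mouse on the scale log2(CPM + 0.5), 6 tumors per gene. Dotted lines mark a 2-fold change; for Ccdc120, C2cd4c, Gipc2, Susd4, and Lin7a both p21+/TertCi tumors (triangles) lie nearer to 0 than all 4 p21+/Tert tumors, and the Lncbate1 point of TCi-HCC981 is a count of 0 placed by the 0.5 CPM added.

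The comparison of Ctnnb1-mutated with other tumors asked whether the genes followed the β-catenin class. Of the 10, 1 passed an adjusted p of 0.05 (edgeR's quasi-likelihood test with Benjamini-Hochberg adjustment), where 12.7% of all 15182 genes tested passed. This was Gipc2, at 35.9 ± 6.33 CPM in the 2 Ctnnb1-mutated tumors and 9.29 ± 4.68 CPM (SD) in the 4 others, which is 1.95 ± 0.52 (SE) on the log2 scale, at an adjusted p of 0.035. It was also the only 1 of the 10 whose tumor classes did not overlap in CPM, which held for 38.3% of genes. Blocking on the animal removed the call (adjusted p = 0.28), as did leaving out T-HCC662, T-HCC663, T-HCA992, TCi-HCC981, or TCi-HCA984 (0.18, 0.089, 0.062, 0.076, and 0.089), but it held without T-HCC941 (0.018).

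Susd4 and Lin7a were at 0.551 ± 0.460 and 7.89 ± 0.564 CPM in Ctnnb1-mutated tumors and at 2.44 ± 2.09 and 15.6 ± 6.32 CPM in the others. Their log2 differences of -2.12 (95% interval -4.03 to -0.21) and -0.99 (-1.80 to -0.19) did not pass (adjusted p = 0.13 and 0.094, edgeR). DESeq2 called both (adjusted p = 0.034 and 0.047), and edgeR called Susd4 without T-HCC941 (0.042) and Lin7a without T-HCA992 (0.019). The Susd4 difference was -0.996 without TCi-HCC981 (adjusted p = 0.40) and -3.37 without T-HCC663 (0.15), and the Lin7a difference was -0.52 without TCi-HCA984 (0.20). For the other 7 genes the intervals included 0, the narrowest being Mtmr11 (log2 difference -0.21, -0.83 to 0.41) and the widest Lncbate1 (-3.12 to 1.38).

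The comparison of the Egfr- or Hras-mutated tumors, T-HCC941 and TCi-HCC981, with the driver-negative T-HCA992 and TCi-HCA984 has 1 tumor of each genotype per side. Both mutated tumors are carcinomas and both driver-negative tumors adenomas, so mutation and tumor type cannot be told apart here. The study also reports for T-HCA992 a signature of MAPK pathway activation, which it gives for the Egfr- and Hras-mutated tumors too. No gene passed (0% of 15182), 1411 genes had an unadjusted p under 0.05, and DESeq2 called 121 genes, none of the 10. Npdc1 had the largest difference among the coding genes, at 97.0 and 65.1 CPM against 50.0 and 27.0 CPM (log2 difference 1.04, 95% interval 0.22 to 1.87, adjusted p = 0.52, edgeR). The difference was 0.67 without TCi-HCA984 and 1.54 without T-HCA992, each fit leaving 1 tumor in a class. With the animal as a block the comparison is between own-liver changes, and their difference was 1.64, not past the threshold. Within each genotype the mutated tumor had the higher level. Lncbate1 had 2 and 0 counts against 3 and 9. The remaining 8 genes had intervals that included 0, among them Entpd2 (0.02, -0.84 to 0.89) and Tmem71 (0.79, -0.35 to 1.93).

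Genotypes were compared among tumors without Ctnnb1 mutation, namely T-HCA992 and T-HCC941 against both p21+/TertCi tumors, so that the driver classes were balanced. None of the 10 genes passed with edgeR, which called 1 gene of 15182 (0.00659%), 0 with the animal as a block, and gave 1217 genes an unadjusted p under 0.05, 4 of the 10 among them. In CPM, 6 of the 10 did not overlap between these genotypes (34.7% of genes), and 4 of the 10 did not when the Ctnnb1-mutated tumors were included (17.8% of genes). These 4 were C2cd4c, Gipc2, Susd4, and Lin7a.

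C2cd4c was 7.66 ± 2.59 CPM in the p21+/Tert tumors of this comparison and 1.36 ± 0.476 CPM in the p21+/TertCi tumors (log2 difference 2.48, 95% interval 1.43 to 3.53, adjusted p = 0.26, edgeR). Susd4 was 0.745 ± 0.213 and 4.14 ± 1.27 CPM (log2 difference -2.46, -3.69 to -1.22, adjusted p = 0.36). DESeq2 called these 2 genes among 165 (adjusted p = 0.00077 and 0.0047). Lin7a differed by -0.98 (-1.59 to -0.37) and Gipc2 by 1.19 (0.01 to 2.37), neither past the threshold (adjusted p = 0.41 and 0.62). Tmem71 (-0.37, -1.61 to 0.87) and Entpd2 (-0.11, -0.98 to 0.76) had intervals centered near 0.

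Non-tumoral livers were compared between the 4 p21+/Tert and the 2 p21+/TertCi mice. No gene passed with edgeR (0%), 1107 genes had an unadjusted p under 0.05, and DESeq2 called 88. In CPM, 3 of the 10 did not overlap between these livers, Ccdc120, Lncbate1, and Susd4, which was true of 16.7% of genes. The livers were also part of the contrast that chose the genes. Ccdc120 was 2.09 ± 0.283 CPM in p21+/Tert and 8.10 ± 3.62 CPM in p21+/TertCi livers (log2 difference -1.97, 95% interval -2.60 to -1.35, adjusted p = 0.083). Susd4 was 25.0 ± 7.44 and 6.30 ± 1.304 CPM (1.97, 0.92 to 3.02, adjusted p = 0.51). Lncbate1 was 10.3 ± 3.34 and 3.83 ± 0.0684 CPM (1.41, -0.16 to 2.98). DESeq2 called Ccdc120 (adjusted p = 1.28e-05) and Susd4 (0.0039), and edgeR called Ccdc120 when the own liver of TCi-HCC981 was left out (adjusted p = 0.021) or when every gene with a read was kept (0.049). Leaving out a p21+/TertCi liver leaves 1, which is assumed to vary like the other groups, and without the own liver of TCi-HCA984 the difference was -1.41 (adjusted p = 0.49).

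In the same livers, the summed level of 8 male-biased liver genes was 5057 to 25219 CPM in p21+/Tert and 2288 to 4389 CPM in p21+/TertCi livers. All 8 had a lower mean in p21+/TertCi livers, none past the threshold (adjusted p = 0.19 to 0.81), and 5 of the 8 passed as lower in tumors than in livers, among them Slco1a1 (log2 fold change -4.15 ± 0.77, adjusted p = 0.0053) and Cyp7b1 (-3.42 ± 0.63, adjusted p = 0.0053). For T-HCA992 the sum was 5057 CPM in the own liver and 5066 CPM in the tumor, and for TCi-HCC981 2288 and 5825 CPM. Single genes went both ways. In the T-HCA992 pair Mup20 rose from 2069 to 3024 CPM and Serpina1e from 874 to 1932, while the other list genes fell. In the TCi-HCC981 pair Serpina1e alone rose, from 963 to 5626 CPM. The summed female-biased genes overlapped between the livers, at 5.76 to 114 CPM in p21+/Tert and 27.4 to 265 CPM in p21+/TertCi mice. In tumors their sum ran from 26.5 to 2902 CPM. Of the 4 tested, 1 passed as higher in tumors (Cyp2a4, log2 fold change 8.15 ± 1.45, adjusted p = 0.0044, edgeR). Cyp2a4 had a mean of 5.91 CPM in livers and 1690 CPM in tumors, so the high tumor sums rest mostly on it. Of the 10 list genes, 6 had a higher mean in tumors and the others a lower mean. In every library the Y-linked Ddx3y was read, at 60.8 to 88.5 CPM in livers and 36.3 to 88.0 CPM in tumors. Xist was at most 0.387 CPM in livers and 1.46 CPM in tumors, the pattern of male mice. The part of sex-biased genes in the Susd4 level was not tested.

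**Figure D3:**
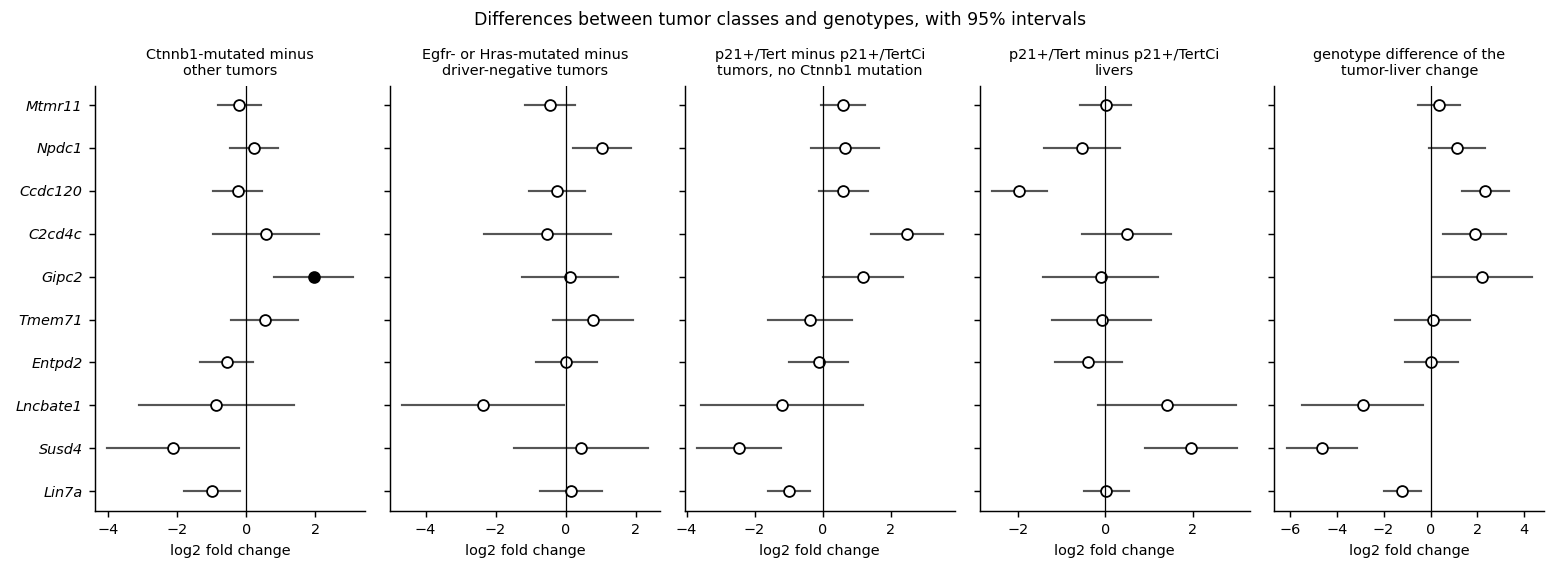
Log2 differences of the 10 genes with 95% intervals (edgeR) in 5 comparisons between tumor classes and genotypes, a filled point passing an adjusted p of 0.05. Gipc2 in the Ctnnb1 comparison is the only filled point; the interval of Ccdc120 in livers and those of C2cd4c and Susd4 in tumors lie away from 0 but did not pass.

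The genotype difference of the tumor-liver change was tested as an interaction over all 12 libraries, where driver class and genotype are not balanced and which is built from the same tumor-liver differences that chose the genes. Of all genes 0% passed with edgeR, 556 had an unadjusted p under 0.05, and DESeq2 called 6 genes, none of the 10 among them. Of the 10 genes, 6 were among those with an unadjusted p under 0.05 (3.66% of all), namely Ccdc120, C2cd4c, Gipc2, Lncbate1, Susd4, and Lin7a. These are also the 6 whose own-liver changes did not overlap between the genotypes, which held for 16.3% of genes. Of these, all but Lncbate1 changed less in both p21+/TertCi mice than in any p21+/Tert mouse. The Lncbate1 change in TCi-HCC981 is set by the 0.5 CPM added to a count of 0 and is a bound, so its place among the other mice is not known. Susd4 had a log2 difference of -4.64 (95% interval -6.14 to -3.13, adjusted p = 0.41). Ccdc120 differed by 2.34 (1.34 to 3.33), C2cd4c by 1.89 (0.55 to 3.23), and Lin7a by -1.20 (-2.004 to -0.39), each at an adjusted p of 0.9999. DESeq2 gave no adjusted p for Ccdc120, C2cd4c, Gipc2, Lncbate1, Susd4, or Lin7a. Their unadjusted p with DESeq2 ran from 3.7e-12 (Susd4) to 0.026 (Gipc2). For Lncbate1 the difference of -2.89 turned to 2.46 when TCi-HCA984 was left out, the other p21+/TertCi tumor having no read. Mtmr11 (0.37, -0.53 to 1.27), Tmem71 (0.08, -1.53 to 1.70), and Entpd2 (0.04, -1.09 to 1.16) had intervals that included 0.

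Relatives and partners of the 10 genes were examined in tumors against livers. In this comparison 10.7% of 13822 genes passed (1476, or 2356 with the animal as a block), and the median log2 fold change was 0.01. With edgeR, 26.2% of these genes had an unadjusted p under 0.05, the share beside which the unadjusted counts below stand. DESeq2 called 2411 genes. With the animal as a block, relatives that passed were Mtmr4, Frmd4a, C2cd4d, Entpd1, P2ry6, and Elovl3, of which Elovl3 alone also passed without it. Among 13 other myotubularin family genes tested, 0 passed with edgeR, 3 had an unadjusted p under 0.05, and DESeq2 called 1, Mtmr12 (log2 fold change 0.67 ± 0.22, edgeR adjusted p = 0.064). Of 21 ectonucleotidases and purine receptors, which make, cleave, or sense extracellular nucleotides, 0 passed, 8 had an unadjusted p under 0.05, and DESeq2 called 4, Enpp2 (1.81 ± 0.55, edgeR adjusted p = 0.052), P2rx7 (1.82 ± 0.61), P2ry6 (1.46 ± 0.53), and P2ry4 (-1.07 ± 0.38). The other liver ectonucleotidases Entpd5 and Entpd8 had values of -0.19 ± 0.36 and -0.68 ± 0.31. Of 13 sushi domain and complement regulator genes 0 passed, 2 had an unadjusted p under 0.05, and DESeq2 called 1, Vtn.

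For the scaffolds, 0 of 2 Gipc relatives and partners passed (1 unadjusted, 0 by DESeq2), with Gipc1 at 15.2 ± 1.43 CPM in livers and 15.6 ± 3.69 CPM in tumors. None of the 7 cytohesins and relatives of Ccdc120 passed (0 by DESeq2, 3 unadjusted), and the median of their log2 fold changes was 0.43. Among 9 Lin7 partners 0 passed (1 unadjusted, 0 by DESeq2), Cask being at 19.1 ± 2.11 CPM in livers and 18.5 ± 2.87 CPM in tumors. C2cd4d, the only relative of C2cd4c that was tested, had 2.18 ± 0.792 CPM in livers and 1.03 ± 0.727 CPM in tumors (edgeR adjusted p = 0.15, unadjusted p under 0.05), and DESeq2 did not call it. Of 7 brown fat genes and Hnrnpu tested, 1 passed, Elovl3 (-4.34 ± 1.03, adjusted p = 0.018), which is also a male-biased liver gene, while Hnrnpu was at 235 ± 14.6 CPM in livers and 257 ± 36.6 CPM in tumors.

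Among the 5 tested genes on each side of the 10, 13 of 90 distinct neighbors passed, 9 higher and 4 lower in tumors. The Npdc1 and Entpd2 stretch of chromosome 2 held a further riser, Uap1l1, which lies beyond Sapcd2 and on the opposite strand. It rose from 10.6 to 63.1 CPM (log2 fold change 2.57, adjusted p = 0.00098) and was higher in all 6 mice, by 2.12 to 3.43 on the log2 scale. Sapcd2, between Uap1l1 and Entpd2, was at 0.253 and 1.61 CPM (2.57, adjusted p = 0.11), and on the other side of Npdc1 the nearest tested gene, Abca2, was at 63.5 and 73.5 CPM (0.20, adjusted p = 0.77). Ptgds, 70.69 kb beyond Npdc1, fell from 4.69 to 0.338 CPM (-3.78, adjusted p = 0.0058).

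The neighbor of C2cd4c at 23.89 kb, Shc2, an adaptor of receptor tyrosine kinases, rose from 0.525 to 35.4 CPM (log2 fold change 6.05, adjusted p = 0.00096), more than C2cd4c itself, while the gene on its other side, Mier2, was at 15.8 and 20.3 CPM (adjusted p = 0.17). Mtmr11 lay between Otud7b (0.72, adjusted p = 0.024) and Sf3b4 (0.19, adjusted p = 0.68). The nearest tested genes of Ccdc120 were Praf2 (-0.86, adjusted p = 0.06) and Tfe3 (0.22, adjusted p = 0.36), those of Gipc2 were Ifi44 (1.37, adjusted p = 0.19) and Dnajb4 (-0.14, adjusted p = 0.79), and those of Tmem71 were Efr3a (0.19, adjusted p = 0.44) and Phf20l1 (0.21, adjusted p = 0.40). Neighbors of the falling genes were Capn8 (-1.67, adjusted p = 0.36) and Tlr5 (-0.94, adjusted p = 0.41) for Susd4, Acss3 (-2.89, adjusted p = 0.082) and Ppp1r12a (0.12, adjusted p = 0.82) for Lin7a, and Zfhx3 (-0.29, adjusted p = 0.40) and Gm1943 (0.001, adjusted p = 0.999) for Lncbate1. The median own-liver change of all tested genes on the chromosomes of these 10 genes ran from -0.305 to 0.555 (log2) over chromosomes and mice, the upper end on chromosome 15, which carries Tmem71.

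**Figure D4:**
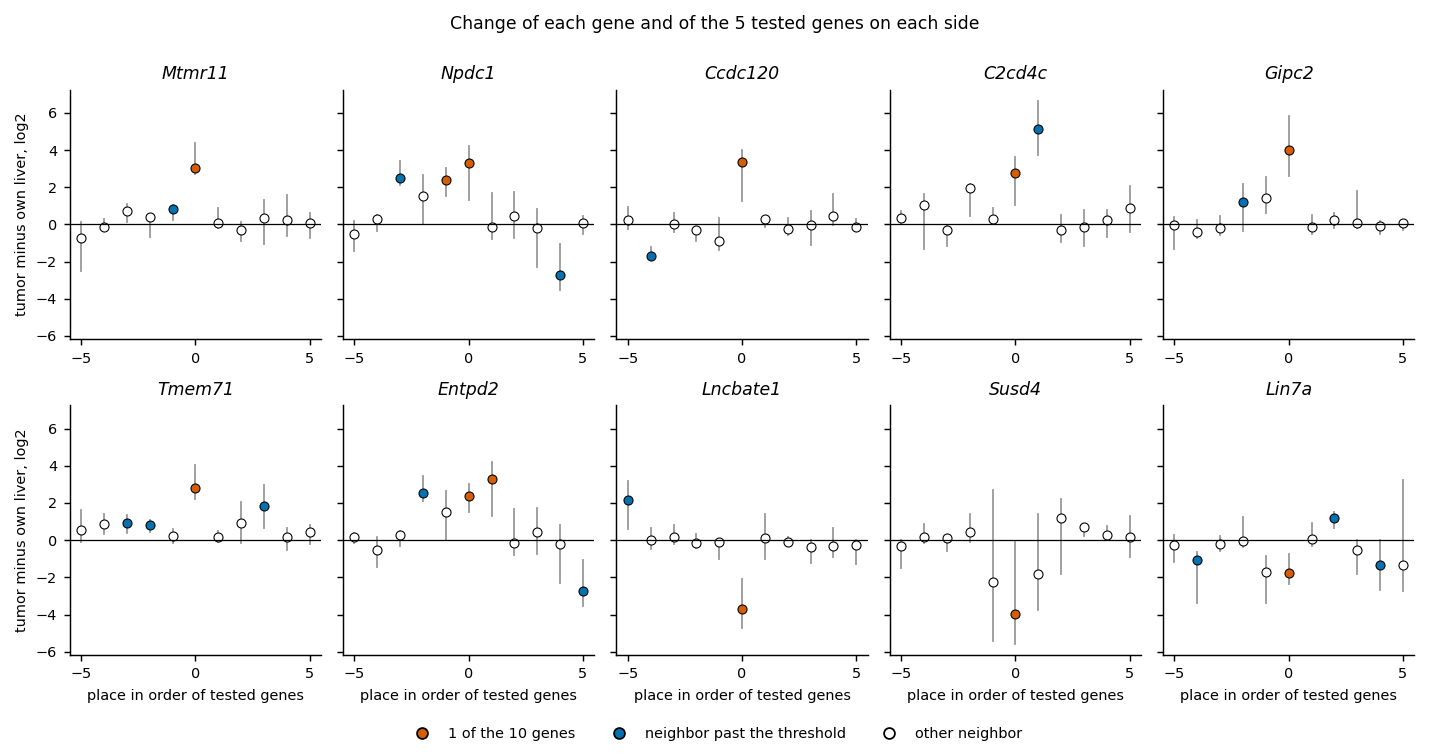
Median own-liver change (log2, points) with its range over 6 mice (bars) for each of the 10 genes, at 0, and for the 5 tested genes on each side in chromosome order. Orange points are genes of the set and blue points are neighbors that passed the threshold; Npdc1, Entpd2, and Uap1l1 stand above their surroundings together, and Shc2 stands above C2cd4c.

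The genes whose log2(CPM + 1) was most like each of the 10 over the 12 libraries were listed by Pearson's r, as a description, since all such values share the tumor-liver difference. For C2cd4c these were the mitotic genes Aurka (r = 0.986), Spdl1 (0.968), and Cenpf (0.959). Mtmr11 was nearest to Pdlim7 (0.980), Shc2 (0.972), and Tnfrsf10b (0.967), and Npdc1 to Adam4 (0.959), Pdlim7 (0.954), and Shc2 (0.951). Tmem71 was nearest to Uap1l1 (0.977), Uchl1 (0.956), and Elovl7 (0.954), and Entpd2 to Tnfsf13 (0.952), Gpr4 (0.950), and Uchl1 (0.949). Gipc2 was nearest to Grrp1 (0.981), Mgat4b, and Scamp5 (0.976 each), and Ccdc120 to Tpm1 (0.959), S100a11 (0.957), and Ppap2c (0.952).

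For the falling genes, Lncbate1 was nearest to Il1rap (r = 0.972), the noncoding Hnf4aos (0.969), and Hoga1 (0.967). Hnf4aos went from a mean of 12.1 CPM in livers to 0.805 CPM in tumors. Susd4 was nearest to Cth (0.949), Mup21 (0.945), and Marc1 (0.935), and Lin7a to Kmo (0.961) and Mtcp1 (0.945).

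Markers of other cells were summed in the same libraries. Bile duct markers ran from 51.3 to 135 CPM in livers and from 17.8 to 1076 CPM in tumors, with 1 of 6 passing (Cldn7, log2 fold change 3.91 ± 1.12, adjusted p = 0.041), a call lost with the animal as a block. Most of the highest tumor sum was Spp1 (1037 CPM), and the ductal markers Krt19, Krt7, and Epcam had log2 values of -0.75, -1.07, and -0.60, none past the threshold. Endothelial markers ran from 51.6 to 138 and from 44.4 to 215 CPM, with 1 of 6 passing (Pecam1, 1.59 ± 0.38, adjusted p = 0.018). Of the 6, 4 had a higher mean in tumors. Stab2 (29.8 CPM in livers and 25.6 CPM in tumors) and Clec4g (33.3 and 16.8 CPM) had lower means, neither past the threshold. Stellate cell (55.6 to 229 and 17.2 to 168 CPM), macrophage (85.2 to 797 and 59.8 to 451 CPM), and lymphocyte markers (1.79 to 42.1 and 2.67 to 34.7 CPM) overlapped between livers and tumors, and none passed with edgeR or DESeq2 or had an unadjusted p under 0.05. With the animal as a block, 3 macrophage markers passed (Cd68, Marco, and Timd4), not all in the same direction. Cd68 had a higher mean in tumors (13.3 CPM in livers and 28.4 CPM in tumors). Marco (19.1 and 4.61 CPM) and Timd4 (7.11 and 2.03 CPM) had lower means in tumors. The part of these cells in the levels of the 10 genes was not tested.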

How the data were processed

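The authors removed reads of low base quality, aligned paired reads with Subread to mm10 with a reporter sequence added, and counted reads per gene with featureCounts 1.6.4. The deposited values are raw counts per gene symbol, with replicates kept apart. The annotation release, the strand setting, and the treatment of multi-mapping reads are not given in the sources used here, and the sequencing run, for which the authors corrected with DESeq2, is not in the labels, so no run term was used.

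Totals were 14571716 to 23932529 in livers and 17471387 to 26170661 in tumors. The lowest chi-square per degree of freedom between 2 libraries of a group was 69.6, so no replicate was a copy of another. Driver classes came from the mutations the study gives for the tumors named in the titles. The members and gene lists were chosen with earlier results of these data known.

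Counts were scaled by TMM and fitted with the quasi-likelihood F test of edgeR 4.0.16 (R 4.3.3) after filterByExpr, with Benjamini-Hochberg adjustment over all genes tested and a threshold of 0.05. Own-liver changes are log2 ratios of CPM plus 0.5. Counting intervals are exact binomial 95% intervals, and a count of 0 was read as up to 3 counts. These cover counting error only. The edgeR step was tested on simulated data.

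Tumor and liver were paired because they came from the same animal, and their deviations from the group means correlated by 0.0416 to 0.547 over 13822 genes. One liver title carries another number and was assigned to T-HCC662 by elimination and by its column header. The model without the block was kept as designed, and the block was an alternative, as were DESeq2 1.42.0, RLE scaling, keeping every gene with a read, leaving out each library, other pseudocounts, and the mean liver as reference. Among tumors, the block turns a comparison of classes or genotypes into a comparison of their own-liver changes.

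Beyond the 10 members, the genes named were list genes past the threshold in tumors against livers, the nearest tested gene on each side of a member, and the 3 genes most like each member, of which 1 is not reported here. Tert, Mtmr12, Mtmr4, Frmd4a, Entpd1, Enpp2, P2rx7, P2ry4, P2ry6, Vtn, Entpd5, Entpd8, Gipc1, Cask, C2cd4d, Ucp1, Lep, Cidea, Adipoq, Plin1, Alb, Cps1, Serpina1c, Spp1, Krt19, Krt7, Epcam, Stab2, Clec4g, Cd68, Marco, Timd4, Hnrnpu, Fbln2, Mup20, Serpina1e, Xist, Ddx3y, Uap1l1, and Ptgds lie outside this rule and were named after their values were seen. Sequences came from RefSeq.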

Additional observations from a re-analysis of the deposited data

Results flagged for a closer look

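Among the 6 livers and the 6 tumors, each of the 10 genes was checked for a library standing far from the others by Dixon's criterion, 20 checks in all, of which 3 were met. Chance meets it in about 1 of 20 such groups. Mtmr11 in T-HCA992 had 101 CPM, above 52.2 to 68.5 CPM in the other tumors. Npdc1 in the own liver of TCi-HCA984 had 10.8 CPM, above 4.70 to 6.58 CPM in the other livers. Lncbate1 in TCi-HCA984 had 0.511 CPM, from 9 counts, above 0 to 0.108 CPM in the other tumors.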

How the results depend on the processing

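DESeq2 called more genes in every comparison, 2411 instead of 1476 for tumors against livers, 3274 instead of 1924 for Ctnnb1-mutated against other tumors, 121 instead of 0 for Egfr- or Hras-mutated against driver-negative tumors, 165 instead of 1 for genotypes among tumors without Ctnnb1 mutation, 88 instead of 0 for genotypes among livers, and 6 instead of 0 for the genotype difference of the tumor-liver change. With the mouse as a replicate block these counts were 2356 for tumors against livers, 441 for Ctnnb1, 0 for genotypes among tumors, and 0 for Egfr or Hras and for the tumor-liver change. Among the class and genotype comparisons of the main edgeR fit, Gipc2 in the Ctnnb1 comparison was the only member called. The block ended that call (log2 difference 1.86 between own-liver changes). Keeping every gene with a read gave 5 calls among livers. The cause of these differences was not tested.

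Leaving out 1 library at a time gave 863 (without the own liver of T-HCC662) to 1988 (without T-HCC662) calls for tumors against livers, and 942 without T-HCC941. It gave 466 (without T-HCC662) to 1803 calls for Ctnnb1, with 967 without T-HCC663, 1100 without T-HCA992, 1054 without TCi-HCC981, and 1275 without TCi-HCA984. It gave 0 to 2 calls for Egfr or Hras (2 without T-HCC941), 0 to 1 for genotypes among tumors, 0 to 7 among livers (7 without the own liver of TCi-HCC981), and 0 for the tumor-liver change. The genotype difference of the tumor-liver change of Lncbate1 ran from -3.91 to 2.46, reversed without TCi-HCA984.

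Of 186 alternative values for 17 differences of single members, 169 kept direction and side of the threshold, 6 lost the call (all Gipc2), 10 gained one, and 1 reversed. These 17 were the differences with an unadjusted p under 0.05 in the main edgeR fit, where Gipc2 in the Ctnnb1 comparison alone passed. For the others, keeping the side of the threshold meant staying not called. With 0.1 CPM added, the median own-liver change of Lncbate1 moved from -3.71 to -5.32, since most tumors held 3 counts or fewer. With 1 CPM added, 7 members in place of 8 changed 2-fold or more in all mice. Groups of 2 tumors limit every class comparison, and Gipc2 and C2cd4c rest on 10 counts or fewer in each liver.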
